A study of Mus musculus with 2 samples.

Results

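Cytosolic ribosomal protein genes were examined in cardiac neural crest cells sorted from mouse embryos that were Adam19-/- or Adam19+/+. Members were all genes with a transcript cluster annotated to exactly 1 symbol made of Rpl or Rps, a number and at most 1 letter, together with Rpsa, Rplp0, Rplp1 and Rplp2. Symbols of S6 kinases and symbols ending in -ps were not members. The rule gave 59 of 19938 genes, 37 of the large and 22 of the small ribosomal subunit. They had 215 of the 21789 clusters with 1 symbol, and the brightest cluster stood for each gene. A cluster is the array's unit for 1 transcript, and its value is a log2 signal.

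The cells came from hearts of C57BL/6 embryos at E14.5, and embryos of both genotypes, Adam19-/- and Adam19+/+, also carried the Wnt1-Cre driver and 1 copy of the reporter (R26tdTomato/+). Wnt1-Cre is active in the neural crest, so tdTomato-positive cells sorted from the digested hearts were taken as its descendants, whatever type of cell they had become. Total RNA was hybridised to Mouse Gene 1.0 ST arrays, 1 array for Adam19-/- and 1 for Adam19+/+ cells (n = 1 each). How many embryos gave the cells of an array was not stated. No difference below has a replicate check, no test was possible, and every difference is that between these 2 arrays.

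Ribosomal proteins assemble with ribosomal RNA into the large subunit, which joins amino acids, and the small subunit, which reads the messenger RNA. Each protein is normally present once per ribosome, apart from the paired P proteins of the stalk, and the messenger RNAs share a tract of pyrimidines at the start through which growth signals control their translation. Neural crest cells are known for their sensitivity to faulty ribosome production, as in Treacher Collins syndrome of humans.

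The pyrimidine tract is shown here for 8 members because it is the feature most often used to define these messenger RNAs. RefSeq start regions (GRCm38.p6, 250 bases before and 50 bases after the annotated start) were at hand for 47 of the 59 members. On the sense strand, a C followed by at least 4 bases that are each C or T, beginning within 5 bases of the annotated start, was found in 18 of the 47 (38.3%) and in 21.5% of 17445 other protein-coding genes. The stretches below run from 10 bases before the start to 15 bases from it, with the match in capitals. In Rpl14 the run of C and T begins before the capitals, further than 5 bases from the start. Shown are the 4 members with a match that were highest and the 4 that were lowest in Adam19-/- cells.
Rps21: aggacccgCCCTCCTgcccaatagt
Rpl14: ggccctCTCTCTTCTCgctgagcgc
Rps27l: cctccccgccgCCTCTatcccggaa
Rpl28: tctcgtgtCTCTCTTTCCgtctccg
Rpl19: aaacgCCCTCactgcgcatgtgcgc
Rpl32l: aaatgaccagCTTCTTCCTTggtgc
Rps15a: tttctgccatCTTCCCTCgccggtg
Rpl12: agcaggatccgtCTTTTCggctttc
Those of Rps21 (chr2:180257369-180257393), Rpl14 (chr9:120571507-120571531), Rps27l (chr9:66946076-66946100), Rpl28 (chr7:4792955-4792979), Rpl19 (chr11:98026700-98026724), Rpl32l (chr10:20208429-20208453) and Rpl12 (chr2:32961702-32961726) lie on the plus strand. That of Rps15a (chr7:118116133-118116157) lies on the minus strand. Members with a match differed by a median of -0.013 on the log2 scale (from -0.27 to 0.18) and the 29 without by 0 (from -0.18 to 0.45).

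A match is a run of letters near an annotated start, which may lie some bases from the start used in these cells. The letters CCGGAAG, on either strand and anywhere in the window, were found in 18 members (38.3%) and in 12.9% of the other genes. They are the core bound by ETS factors such as GABP. In 11 members both were found, and the complement CTTCCGG overlapped the tract in 1. TATAA, on the sense strand between 40 and 16 bases before the start, was found in 2 members (4.26%) and in 5.04% of the other genes. Members with CCGGAAG differed by a median of -0.011 and those without by 0.00078, and for both motifs the differences of members with and without a match overlapped.

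The signals of the ribosomal protein genes were among the brightest of the arrays. Their mean signal over both arrays had a median of 12.47 and a middle range (the central 50%) of 11.48 to 13.16, against a median of 8.01 over all genes. Of 529 genes with a mean signal of 12 or more 40 were members, and of 95 genes at 13 or more 17 were members. Signals of different clusters also reflect how well their probes bind, so no order of RNA amounts is read from them.

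The 5 brightest members hardly differed between the genotypes. Rpl28, a protein of the large subunit that budding yeast lacks, measured 13.89 in Adam19-/-, against 13.84 in Adam19+/+ cells. Rplp0, the base protein of the P stalk, measured 13.85 in Adam19-/-, against 13.76 in Adam19+/+ cells. Rps6, the classic substrate of the S6 kinases, measured 13.72 in Adam19-/-, against 13.77 in Adam19+/+ cells. Rpl28 and Rplp0 were thus slightly higher, by 0.06 and 0.09, and Rps6 was lower, by 0.05. Rpl10, which is added late and lets the subunits join, measured 13.72 in Adam19-/-, against 13.73 in Adam19+/+ cells. Rpl21 measured 13.65 in Adam19-/-, against 13.75 in Adam19+/+ cells.

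**Figure D1:**
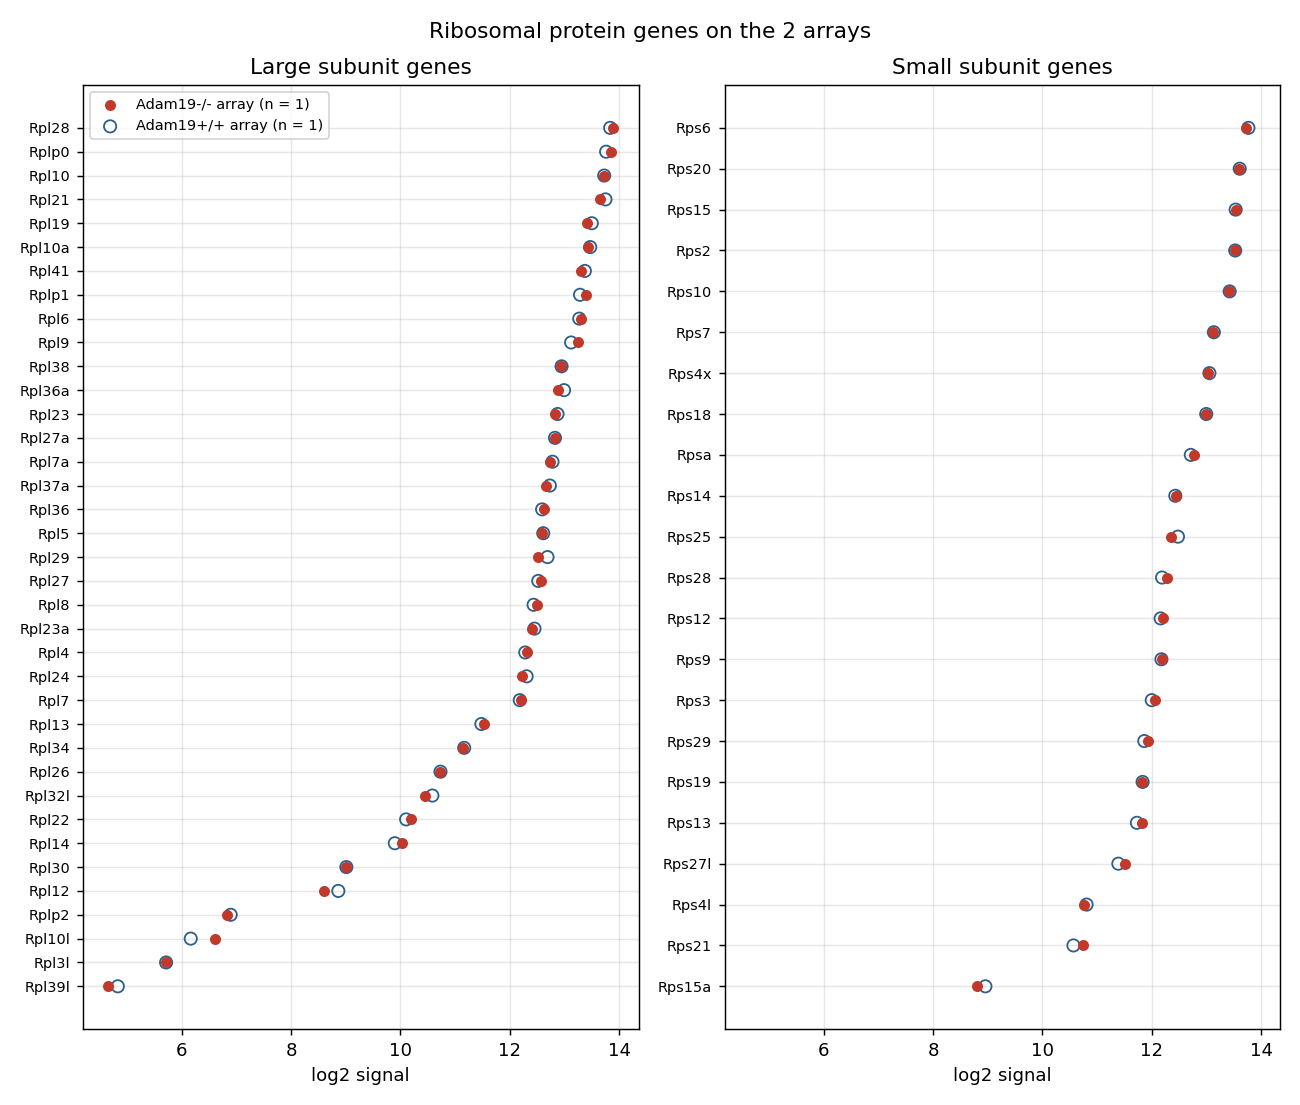
Log2 signal (horizontal axis) of each of the 37 large and 22 small subunit genes, ordered by mean signal; filled points are the Adam19-/- array and open points the Adam19+/+ array, 1 array each. The 2 points of most genes lie on each other, and the widest gap is that of Rpl10l, at 6.62 in Adam19-/- and 6.17 in Adam19+/+ cells.

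The dim end held 3 paralogues of restricted expression. Rpl39l, a paralogue of Rpl39 known from the testis, measured 4.65 in Adam19-/-, against 4.83 in Adam19+/+ cells. Rpl3l, the paralogue of Rpl3 known from striated muscle, was at 5.71 on both arrays, with exactly equal values. Rpl10l, a testis paralogue of Rpl10, measured 6.62 in Adam19-/-, against 6.17 in Adam19+/+ cells, and its 0.45, or 1.37-fold, was the largest difference of any member. These 3 genes and Rplp2 were the 4 members below the median signal of all genes. When 32 was added to each linear signal, a step that damps dim genes, Rpl10l differed by 0.33 and Rpl39l by -0.08. Rplp2, a P protein of the stalk, measured 6.83 in Adam19-/-, against 6.90 in Adam19+/+ cells. The 5th dimmest was Rpl12, which is described with the stalk below.

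Over all members the genotypes were nearly level. The median signal of members was 12.49 in Adam19-/- and 12.48 in Adam19+/+ cells, and the median of their differences was -0.0025, against 0.0061 over all genes. Of the 59 members 26 were higher, 30 lower and 3 exactly equal in Adam19-/- cells, against 51.7% higher, 34.1% lower and 14.2% equal over all genes and 57.4%, 42.5% and 0.105% among the 956 other genes in the middle range of member signal. Above the all-gene median difference were 24 members, against 50% of all genes by construction and 53.8% of the genes in that range. Differences ran from -0.27 (Rpl12) to 0.45 (Rpl10l), and 57 of 59 members lay inside the central 95% of all genes, -0.25 to 0.33. The split of higher and lower members turned with the scaling. It was 34 to 24 after quantile normalisation of the arrays, and 24 to 35 after centring on the all-gene median.

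Few members differed by 1.1-fold, and none by 1.5-fold, a size by which 0.155% of all genes were higher and 0.0552% lower. By 2-fold, 0% of all genes were higher and 0.0201% lower. At 1.1-fold, 7 members (11.9%) were past the threshold in either direction, against 25.5% of all genes. Among the 956 other genes in the middle signal range, the share was 11.9% too. The members themselves had mean signals from 4.74 to 13.87, so their shares and those of the 956 genes come from unlike ranges of signal. Of the 7 members past the threshold only Rpl29, at 12.60, lay in the middle range. Higher by this size were 2 members (3.39%), against 17.2% of all genes and 8.05% of the genes in that range. Lower were 5 members (8.47%), against 8.26% of all genes and 3.87% of the genes in that range. After quantile normalisation 4 members were higher and 5 lower by 1.1-fold. A band of 0.1 on the log2 scale around 0 held 46 members (78.0%), 63.2% of all genes and 76.9% of the genes in that range.

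**Figure D2:**
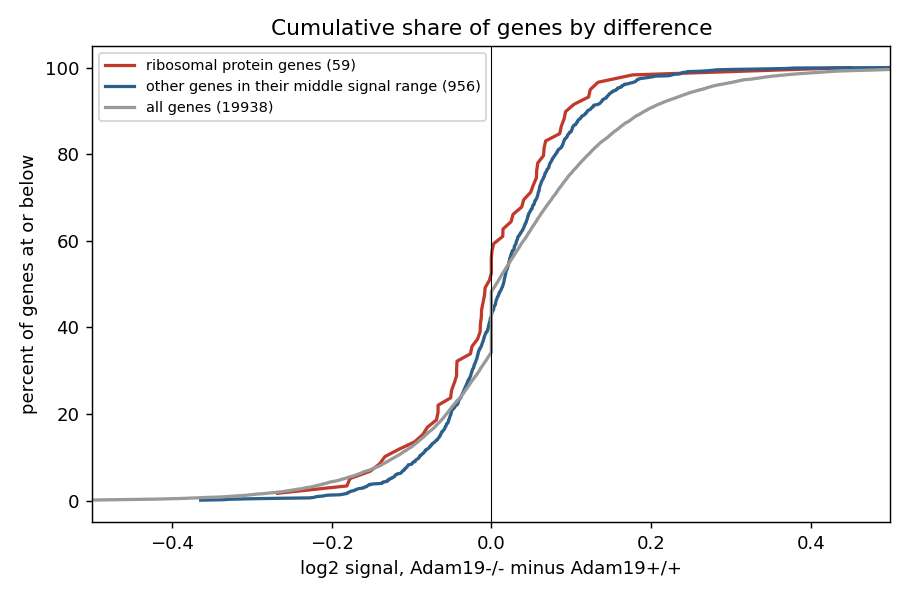
Percent of genes (vertical axis) at or below a given difference in log2 signal, Adam19-/- minus Adam19+/+ (horizontal axis), for 59 ribosomal protein genes, 956 other genes in their middle signal range and all 19938 genes. The curve of the ribosomal protein genes is about as steep as that of the genes in their signal range and steeper than that of all genes.

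The large and small subunits had medians close to 0. Of the 37 large subunit genes 15 were higher, 20 lower and 2 equal, and their median was -0.0086. Of the 22 small subunit genes 11 were higher, 10 lower and 1 equal, and their median was 0.00039. The large subunit's median was 0.011 after quantile normalisation and -0.024 after removal of a smooth curve of difference on signal, so its sign rests on the scaling. Whether the subunits differ was not tested.

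The stalk, which recruits elongation factors, was uneven. Rplp1 measured 13.39 in Adam19-/-, against 13.29 in Adam19+/+ cells, differing by 0.10, and its 2 clusters gave 0.10 and 0.12. Rplp0 was higher by 0.09, with 0.02 from its other cluster, while 2 clusters it shares with Gm5779 were lower, by 0.02 and 0.04. Rplp2 was lower by 0.07 at its dim signal. Rpl12, which sits at the base of the stalk, measured 8.60 in Adam19-/-, against 8.86 in Adam19+/+ cells, and its -0.27, or 1.20-fold, was the largest decrease of any member. This cluster was far dimmer than 7 clusters that the annotation gives to both Rpl12 and Gm32899, which lay between 13.12 and 13.64 in Adam19-/- cells and differed by -0.10 to 0. The decrease of Rpl12 therefore belongs to its dim cluster, and a cluster shared with the small nucleolar RNA gene Snora65, at 8.41 in Adam19-/- and 8.58 in Adam19+/+ cells, was lower by 0.17.

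Rpl8, near the peptidyl transferase centre, measured 12.49 in Adam19-/-, against 12.44 in Adam19+/+ cells. Rpl5, which carries the smallest large-subunit RNA into the ribosome and can bind Mdm2, measured 12.60 in Adam19-/-, against 12.61 in Adam19+/+ cells. All 5 clusters of Rpl5 were lower, by between 0.02 and 0.15 on the log2 scale. At the rim of the exit tunnel 4 of 8 listed genes were measured: Rpl22, a protein also known for roles in lymphocyte development, measured 10.20 in Adam19-/-, against 10.10 in Adam19+/+ cells, Rpl19 differed by -0.08, Rpl23a, a docking site of targeting factors, by -0.04, and Rpl26 by 0. Rpl26 had the same value, 10.73, on both arrays, while 3 clusters it shares with Gm15772 were lower by 0.07 to 0.09.

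Among the other large subunit genes, the largest increases were those of Rpl14 and Rpl9. Rpl14 measured 10.03 in Adam19-/-, against 9.90 in Adam19+/+ cells, differing by 0.13 from a single cluster. Rpl9 measured 13.25 in Adam19-/-, against 13.12 in Adam19+/+ cells, and all 8 of its clusters were higher, by 0.01 to 0.12. Smaller increases came from Rpl27 at 0.06, Rpl13 at 0.05, Rpl36 and Rpl4 at 0.04 each, Rpl6 at 0.03 and Rpl7 at 0.02. Every one of the 9 clusters of Rpl13 and of the 9 of Rpl36 was higher.

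The largest decreases of the large subunit above the median signal, after Rpl12, were those of Rpl29 and Rpl32l. Rpl29, a basic protein known to bind heparin, measured 12.51 in Adam19-/-, against 12.69 in Adam19+/+ cells, differing by -0.18 or 1.13-fold. A further 35 clusters that Rpl29 shares with other symbols such as Gm13213 were all lower, by 0.04 to 0.15 with a median of -0.09, so the direction of Rpl29 is that of every cluster annotated to it. Rpl32l measured 10.44 in Adam19-/-, against 10.58 in Adam19+/+ cells. A far brighter cluster that Rpl32l shares with Rpl32, at 13.61 in Adam19-/- and 13.66 in Adam19+/+ cells, differed by only -0.05. Rpl36a, an X-linked gene, measured 12.88 in Adam19-/-, against 12.99 in Adam19+/+ cells and differed by -0.12, with -0.15 from its other cluster. Rpl21 differed by -0.10, and its 9 own clusters and 32 shared ones were all lower.

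Rpl24 is known from the Belly spot and tail mouse, in which pigment cells of neural crest origin are affected. It measured 12.22 in Adam19-/-, against 12.31 in Adam19+/+ cells, differing by -0.09. Rpl37a and Rpl41, which encodes one of the shortest proteins known, each differed by -0.07. Rpl23 was at -0.05, and Rpl7a and Rpl10a were both at -0.04, that of Rpl10a turning to 0.02 after quantile normalisation. Rpl38, known in mice for the translation of Hox messenger RNAs, measured 12.94 in Adam19-/-, against 12.95 in Adam19+/+ cells. Rpl34 differed by -0.02, Rpl30 by -0.0086 and Rpl27a, mutated in the Sooty foot ataxia mouse, by 0.0029.

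Rps21 had the largest increase of the small subunit. It measured 10.75 in Adam19-/-, against 10.57 in Adam19+/+ cells, differing by 0.18 or 1.13-fold, and its other cluster gave 0.16. Rps27l, a paralogue of Rps27 known as a target of p53, measured 11.51 in Adam19-/-, against 11.39 in Adam19+/+ cells. Rps13 measured 11.82 in Adam19-/-, against 11.73 in Adam19+/+ cells, with 3 of 3 clusters higher by 0.09 to 0.11. The next in order were Rps28 at 0.09, Rps3, which lines the entry channel of the messenger RNA, at 0.07, Rpsa, which was first described as a laminin receptor, at 0.07, and Rps29 at 0.07. All 7 clusters of Rps28, 5 of Rpsa and 4 of Rps29 were higher.

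Rps15a and Rps25 were at the lower end of the small subunit. Rps15a measured 8.81 in Adam19-/-, against 8.96 in Adam19+/+ cells, differing by -0.15 or 1.11-fold. As with Rpl12, this was a dim cluster, and 2 brighter clusters that Rps15a shares with pseudogenes differed by 0.02 and -0.0084. Rps25, needed for the use of some internal ribosome entry sites, measured 12.35 in Adam19-/-, against 12.48 in Adam19+/+ cells, differing by -0.13. All 6 of its clusters were lower, but their mean was -0.07, so the brightest cluster gives almost the largest decrease. Rps6 was lower in 8 of 8 clusters, by 0.05 to 0.14.

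Several members of the small subunit are known from mouse or human disease. Rps19, the gene most often mutated in Diamond-Blackfan anaemia and also found in mice with dark skin, was at 11.83 on both arrays, differing by -0.0025. Rps20, the other gene of dark-skinned mice, measured 13.60 in Adam19-/-, against 13.61 in Adam19+/+ cells. Rps14, lost in the human 5q- syndrome, measured 12.45 in Adam19-/-, against 12.43 in Adam19+/+ cells. Of 18 listed genes of Diamond-Blackfan anaemia 9 were measured, of which 3 were higher, 5 lower and 1 equal, and their median of -0.0025 turned to 0.011 after quantile normalisation. The differences in this list ran from -0.15 for Rps15a to 0.09 for Rps28. In the head of the small subunit, which swivels during translocation, 10 of 14 listed genes were measured, 5 of them higher and 5 lower.

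The other small subunit genes lay between -0.05 and 0.05. Rps12 was at 0.05, with 9 of its 14 clusters higher and 5 lower, several of the higher ones with nearly the same values. Rps9 differed by 0.01, Rps15 by 0.00078 and Rps2 by 0. The last of these had exactly the same value on both arrays, 13.53, although its other 2 clusters gave -0.13 and 0.06. Rps7, Rps10 and Rps18 were at -0.01 each and the X-linked Rps4x at -0.03. Rps4l, annotated as a transcribed pseudogene, was at -0.05, with 0.13 from its other cluster.

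Many members had several clusters, since copies of ribosomal protein genes are scattered over the genome and probes for them can bind the same RNA. For this reason clusters of a gene are not independent. Of the 39 members with 2 or more clusters, 29 had all of them on 1 side of 0, with 15 members higher throughout and 14 lower throughout. Over the 31 members with 3 or more clusters, 179 in all, clusters lay around their gene's mean with an SD of 0.029, and the gene means had an SD of 0.055. In 1 gene, Rpl41, 2 clusters had identical values and the other nearly the same. Several clusters of Rps12 and of Rpl23a also nearly repeated each other. The gene-to-gene SD was larger than the SD among clusters of a gene, which such near copies can lower. The spread among clusters holds no variation between embryos.

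**Figure D3:**
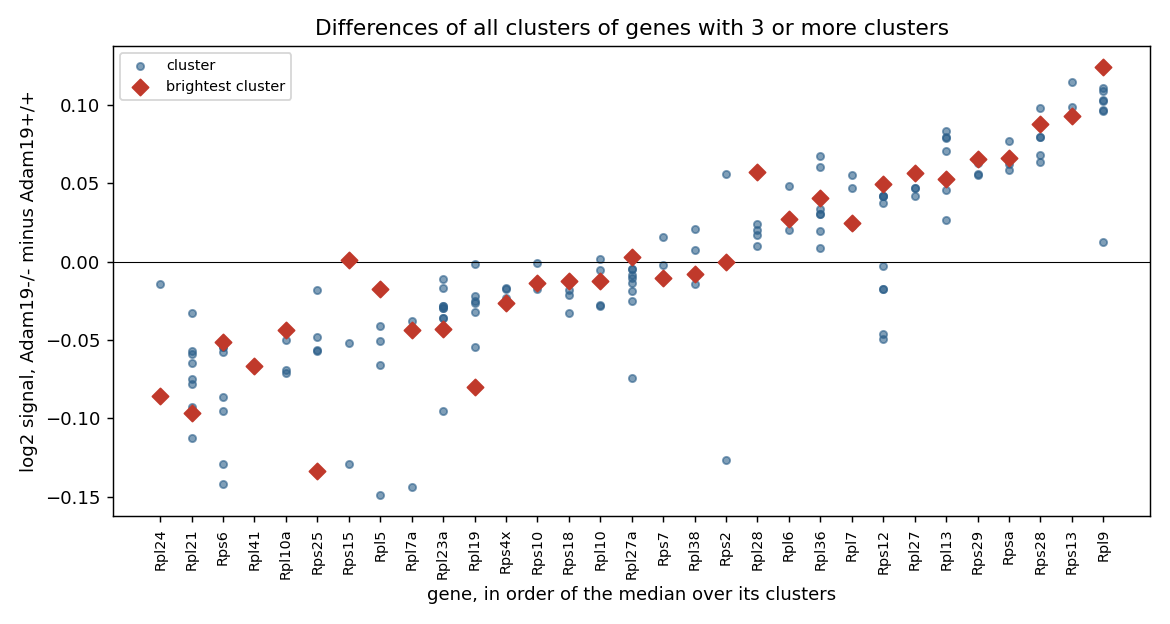
Difference in log2 signal, Adam19-/- minus Adam19+/+ (vertical axis), of every cluster of the 31 members with 3 or more clusters, ordered by their median; diamonds are the brightest cluster, which stood for the gene. Rpl9, Rps13, Rps28, Rpsa and Rps29 lie wholly above 0 and Rpl24, Rpl21 and Rps6 wholly below it, while Rps12 and Rps2 straddle it.

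Clusters annotated to a ribosomal protein gene together with other genes were not used for the members, but they show what the brightest single-symbol cluster leaves out. There were 233 such clusters, of which 203 were lower, 28 higher and 2 equal, with a median of -0.05, and most belonged to a few genes with many copies. By single-symbol clusters, 34.1% of all genes were lower, and 42.5% of the 956 other genes in the middle range of member signal. The share over all clusters with several symbols is not given here, so whether this tilt is particular to ribosomal protein genes was not tested. The 233 clusters covered 32 genes, 15 of which had no other cluster. By the brightest cluster 12 of these 15 were lower and 3 higher, from -0.14 (Rpl31) to 0.08 (Rpl13a), with a median of -0.03. Rpl39 differed by -0.11, at 13.65 in Adam19-/- and 13.76 in Adam19+/+ cells, and Rpl37 by -0.10. Rpl11, the partner of Rpl5, was at 12.20 in both and differed by -0.0062.

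Rpl30 and Rps19 looked different in these clusters. The single-symbol cluster of Rpl30 was near 9 on both arrays and differed by -0.0086. The brightest of 10 clusters that Rpl30 shares with Gm12191 and Gm5481 measured 12.81 in Adam19-/-, against 13.04 in Adam19+/+ cells. All 10 were lower, by 0.21 to 0.29, more than any member but Rpl12. Rps19 was level by its own cluster, whereas 3 dimmer clusters shared with Rps19-ps3 differed by -0.24, -0.15 and -0.15. Clusters shared with small nucleolar RNAs, which lie in introns of these genes, went both ways. Higher were those of Rpl13 with Snord68 (7.60 in Adam19-/- and 7.24 in Adam19+/+ cells) and Rps13 with Snord14a (8.08 in Adam19-/- and 7.86 in Adam19+/+ cells). So were those of Rpl13a with Snord32a (10.86 in Adam19-/- and 10.74 in Adam19+/+ cells) and with Snord34 (8.18 in Adam19-/- and 8.08 in Adam19+/+ cells). That of Rpl12 with Snora65 was lower, by 0.17.

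By the gene table, members lay on 17 chromosomes. Adam19 is on chromosome 11, and of the 6 members there Rpl27 was higher, Rpl26 equal and Rpl38, Rpl23a, Rpl23 and Rpl19 lower, with a median of -0.025. The 3 X-linked members, Rpl10, Rps4x and Rpl36a, were all lower, by 0.01 to 0.12. After quantile normalisation Rpl10 turned to 0.02 and Rpl38 to 0.0034, and Rpl26 to -0.02. Lower were also 34.1% of all genes and 42.5% of the 956 other genes in the middle range of member signal. The shares over all genes of these chromosomes are not given here, so whether the chromosome plays a part was not tested.

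The rest of the translation machinery was set beside these genes. Of 6 measured elongation factors 3 were higher and 3 lower, and the median of -0.02 turned to 0.02 after quantile normalisation. Of 24 initiation factors 13 were higher and 11 lower, and the median of 0.0035 turned to values between -0.013 and -0.0026 under quantile normalisation, centring and removal of the curve. The largest difference, 0.18, was that of Eif6, which keeps the large subunit from joining too early. Other messenger RNAs with a pyrimidine tract had a median of -0.02 over 16 genes, 6 higher and 10 lower, which became -0.0039 after quantile normalisation. Npm1, a nucleolar chaperone, differed by -0.16, Gas5, a non-coding host of small nucleolar RNAs, by 0.10, and Tpt1 by -0.09. Fau, which encodes a small subunit protein fused to a ubiquitin-like one, measured 13.02 in Adam19-/-, against 12.95 in Adam19+/+ cells. Rpl7l1 differed by -0.06 and Rps3a1 by -0.0091, and the rule for members takes in neither symbol.

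Genes that build ribosomes are active mostly in the nucleolus. Of 47 genes of ribosome biogenesis 31 were higher and 16 lower, and the median of 0.04 became -0.0047 after removal of the curve on signal. Above the median signal were 45 of them, and of all 9969 such genes 6491 were higher, with a median of 0.04 too. Wdr12, a factor of large subunit maturation, measured 9.31 in Adam19-/-, against 9.03 in Adam19+/+ cells. Utp18, of the small subunit processome, was higher by 0.24, and Gnl3, the nucleolar protein nucleostemin, lower by 0.21. Of 20 genes of RNA polymerase I and its factors 14 were higher and 6 lower, and the median of 0.05 became 0.02 after quantile normalisation and 0.01 after removal of the curve. The largest difference, 0.23, was that of Polr2h, a subunit shared by all 3 nuclear RNA polymerases.

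Of 18 genes of the mTORC1 and S6 kinase list, which includes Mycn, 11 were higher and 7 lower, and the median of 0.04 became 0.02 after removal of the curve. All 18 were above the median signal, where 6491 of 9969 genes were higher, with a median of 0.04. Mycn, a factor that drives genes of ribosome production, measured 9.02 in Adam19-/-, against 8.54 in Adam19+/+ cells, differing by 0.48. Myc, on the same list and brighter, went the other way, at 11.21 in Adam19-/- and 11.35 in Adam19+/+ cells, differing by -0.14. Mlst8, a subunit of the mTOR complexes, was higher by 0.28, and Eif4ebp1, which restrains cap-dependent initiation, lower by 0.15. Of 13 measured p53 targets 7 were higher and 6 lower, and the median of 0.02 became -0.01 after removal of the curve. Trp53inp1 was higher by 0.24, and Eda2r and Perp were lower by 0.19 and 0.15.

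Mitochondrial ribosomal protein genes, which encode a separate ribosome, stood higher. Of 77 measured, 64 were higher and 13 lower, and the median was 0.11. Of all genes 51.7% were higher and 34.1% lower, and of 9969 genes above the median signal 6491 were higher and 3370 lower. By 1.1-fold 23 of the 77 were higher and 3 lower, against 17.2% and 8.26% of all genes. Of the 9969 genes above the median signal, 1854 were higher and 528 lower by this size. Mrps14 measured 8.46 in Adam19-/-, against 8.06 in Adam19+/+ cells, and Mrpl21 and Mrps28 were higher by 0.36 and 0.34. Their signals had a median of 9.88 in Adam19-/- and 9.77 in Adam19+/+ cells, and all genes with a mean signal between 8 and 10 had a median difference of 0.05. The median of the mitochondrial genes stayed between 0.07 and 0.11 under quantile normalisation, centring and removal of the curve. Whether the cytosolic and mitochondrial lists differ beyond the variation between embryos was not tested.

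**Figure D4:**
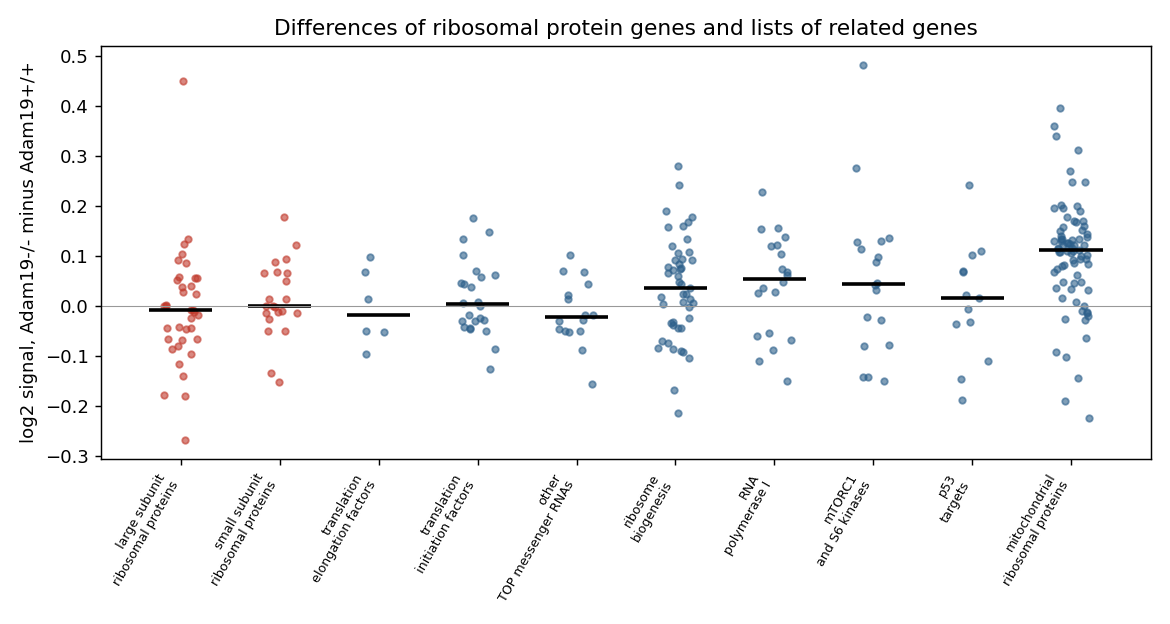
Difference in log2 signal, Adam19-/- minus Adam19+/+ (vertical axis), of each gene of the large and small ribosomal subunit and of 8 lists of related genes; horizontal bars are medians and points are spread sideways for display only. The medians are -0.0086 and 0.00039 for the subunits and 0.11 for the mitochondrial ribosomal proteins.

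Across the series, Adam19 measured 9.77 in Adam19-/-, against 11.62 in Adam19+/+ cells. Of the listed neural crest derivatives' markers 12 of 15 were measured and 11 of these were above the median signal. Of the 12, 8 were higher and 4 lower, from -0.15 (Tagln) to 0.46 (Th). Their summed linear signals were 28106 in Adam19-/- and 28772 in Adam19+/+ cells. Acta2, the brightest of the 12, weighs most in these sums. It measured 13.62 in Adam19-/-, against 13.74 in Adam19+/+ cells. Sox10 measured 10.50 in Adam19-/-, against 10.45 in Adam19+/+ cells. Over all genes 51.7% were higher and 34.1% lower, and of 9969 genes above the median signal 6491 were higher. Of 16 macrophage and leukocyte markers 15 were higher in Adam19-/- cells and 1 was equal (summed linear signal 3204 and 2404 in Adam19-/- and Adam19+/+ cells). Higher were also 12 of 15 cardiomyocyte (12959.5 and 11963) and 5 of 6 erythroid markers (3110 and 2570). Of 11 endothelial markers 7 were higher, 3 lower and 1 equal (6283 and 5967). Of 10 epicardial markers 5 were higher, 3 lower and 2 equal (3301 and 2970). Of the leukocyte markers 4 were above the median signal, and Ptprc, the defining one, measured 6.26 in Adam19-/-, against 6.05 in Adam19+/+ cells. The 3 measured Y-linked genes were 2.25-fold to 3.08-fold lower, and 7 of 7 measured RNAs often held in the nucleus were lower, with a median of -0.22. Xist, 1 of these 7 RNAs, measured 11.14 in Adam19-/-, against 11.25 in Adam19+/+ cells. The part of these features in the differences of ribosomal protein genes, X-linked ones among them, was not tested. In sorted pools fewer cells of a type and less RNA per cell cannot be told apart.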

How the data were processed

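The deposited table held log2 signals per transcript cluster for 28853 clusters on 2 arrays. How the authors corrected, normalised and summarised the probes was not stated in what was at hand, and that the log2 scale applies was read from the range of values, 4.09 to 14.52. Arrays were not normalised again. Clusters were named through the platform annotation and symbols updated by gene identifier from a RefSeq table (GRCm38.p6). Clusters with several symbols (1621) or none listed (5443) gave no gene. Differences are Adam19-/- minus Adam19+/+, counted at 1.1-fold, 1.5-fold and 2-fold, with no test. The number of arrays limits the precision. Tables were handled in Python 3.11.15 with pandas 2.3.3 and numpy 2.4.6, the curve was fitted with statsmodels 0.14.6 and plots were drawn with matplotlib 3.10.9, and the steps were tested on simulated shifts.

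Members and lists were chosen with earlier results of these data known. The rule for named genes took the 8 largest increases and decreases, the 5 brightest and dimmest members, members of the stalk, paralogues, Rpl5, Rpl11, Rps6, Rps19 and 3 genes of each list. Other members, list genes beyond these and clusters with several symbols were chosen after their values were seen. Alternatives were quantile normalisation, centring, a lowess curve (fraction 0.3), the mean of clusters, a pseudocount of 32, 3 narrower sets of members and the platform's own symbols. Some list genes are not analysed here.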

Additional observations from a re-analysis of the deposited data

How the results depend on the processing

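Results were recomputed under 9 alternatives chosen at the outset and 1 added after seeing the data. The last takes in the 15 genes counted above that had only clusters with several symbols, without Rpl32. The median difference of members lay between -0.0095 and 0.014, that of large subunit genes between -0.024 and 0.011 and that of small subunit genes between -0.0057 and 0.017. The medians of all members and of the large subunit turned positive under quantile normalisation alone, and that of the small subunit turned negative under centring and with the added genes. Between 22 and 30 members were above the median of all genes, against 24 as reported, and between 5 and 9 were past 1.1-fold, against 7. Some alternatives change the number of genes counted, so these counts are not all out of 59. The 22 came from the set without 5 paralogues and the 30 from quantile normalisation. Of the 59 members 47 kept their sign under quantile normalisation, centring and the lowess curve, 24 of them higher and 23 lower, and the 12 that did not were at most 0.04 from 0. No paired analysis was possible because each genotype had 1 array. Differences of this size cannot be separated from variation between samples with 1 array each.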

Other observations

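Across the 59 members the difference and the mean signal had a Pearson's r of -0.02, given as a description over genes that share both arrays.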
